A study of Mus musculus with 308 samples.

Results

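The genes described are 34 genes of red cell precursors and of heme synthesis, listed by name, and their members on the array are the probe sets whose only gene symbol is one of these names. Of the 34 genes, 33 had such a probe set, out of 17097 genes represented in all, and Tspo2 had none. The 33 genes were represented by 59 probe sets, and each gene is given by the one that was brightest on average over the 308 arrays. Expression was measured with 308 Affymetrix mouse arrays of total RNA from spleen, whole blood, inguinal and mesenteric lymph node, kidney, jejunum and brain of C57BL/6 mice. Dosing was daily for 10 days, with collection 12 h after the final dose. The groups were vehicle (VEH, 0.8% hydroxypropyl methylcellulose), dimethyl fumarate at 100 mg/kg (DMF100) or 179.2 mg/kg (DMF179.2), monoethyl fumarate as a mixture of its calcium, magnesium and zinc salts at 79.2 mg/kg (MEF79.2), and DMF100 given together with MEF79.2 (the combination). The last group bears the label Nav, which the sources used here do not explain, so no treatment is assigned to it. All groups are of the same strain, no allele is named, and the labels give neither sex nor age. Dimethyl fumarate and monoethyl fumarate are esters of fumaric acid, and the design asks which genes each of them changes relative to vehicle in each tissue.

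Red cells arise from precursors that divide several times while they switch on GATA1, TAL1 and KLF1, transcription factors that drive the genes of hemoglobin, heme synthesis and the red cell membrane. Erythropoietin, sensed by its receptor EPOR, keeps these precursors alive, and transferrin receptors bring in the iron that ferrochelatase places into heme. In adult mice the bone marrow makes most red cells, and the red pulp of the spleen holds a further pool of precursors that can expand. Circulating red cells have lost their nucleus but young ones still carry RNA, so whole blood contains late erythroid transcripts such as those of globin and Alas2. Most enzymes of heme synthesis other than Alas2 are also used by other cells, which need heme for cytochromes and other proteins.

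Promoters are shown first for 7 of the genes because the results below turn on them. Klf1, Gata1, Kel, Rhag and Epb42 are among the genes that rose together in spleen at the high DMF dose, while Alas2 and Hba-a1, the genes for the erythroid heme-synthesis enzyme and for alpha globin, did not pass the test there. The sequences are from RefSeq on assembly GRCm38.p6, run 5′ to 3′ on the strand of the gene, and span 120 bases up to its start. Capitals mark the usual GATA1 words, namely AGATAA or AGATAG, together with those that begin with T in place of the first letter, TGATAA or TGATAG, and CCNCNCCC, the usual KLF1 word, on either strand.
Klf1, chr8:84901862-84901981, plus strand: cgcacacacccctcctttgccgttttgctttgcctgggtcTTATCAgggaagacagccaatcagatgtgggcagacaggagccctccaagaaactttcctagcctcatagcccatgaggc
Gata1, chrX:7967911-7968030, minus strand: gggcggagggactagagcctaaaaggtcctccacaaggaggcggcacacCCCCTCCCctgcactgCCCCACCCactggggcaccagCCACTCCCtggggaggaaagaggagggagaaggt
Kel, chr6:41704326-41704445, minus strand: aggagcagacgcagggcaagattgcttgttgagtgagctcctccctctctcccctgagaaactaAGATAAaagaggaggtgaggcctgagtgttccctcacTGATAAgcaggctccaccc
Rhag, chr17:40811029-40811148, plus strand: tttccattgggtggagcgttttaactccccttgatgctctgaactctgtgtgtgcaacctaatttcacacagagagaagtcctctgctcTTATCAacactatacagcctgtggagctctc
Epb42, chr2:121036878-121036997, minus strand: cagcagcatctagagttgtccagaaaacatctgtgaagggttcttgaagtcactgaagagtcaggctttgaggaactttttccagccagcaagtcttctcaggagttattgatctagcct
Alas2, chrX:150547297-150547416, plus strand: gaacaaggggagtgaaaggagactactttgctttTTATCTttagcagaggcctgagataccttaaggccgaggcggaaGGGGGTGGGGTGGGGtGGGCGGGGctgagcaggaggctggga
Hba-a1, chr11:32283552-32283671, plus strand: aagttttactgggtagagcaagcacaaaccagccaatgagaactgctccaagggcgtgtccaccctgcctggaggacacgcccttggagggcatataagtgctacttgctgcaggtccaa

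A promoter window of 250 bases before the start and 50 after it was on file for 26 of the 33 genes, in 32 windows, and not for Slc25a37, Car1, Fech, Slc4a1, Ank1, Car2 and Nfe2. Only the 250 bases before the start were searched. A GATA word occurred in 17 of the 32 windows (53.1%), against 26.5% of the 32851 promoter windows of all genes. The KLF word occurred in 19 windows (59.4%) against 45.9% of all windows, and both kinds in 6 (18.8%) against 8.19%. No GATA word overlapped a KLF word in the windows of the 33 genes, although KLF words overlapped each other in the promoter of Alas2. The stretches of Epb42 and Hba-a1 printed above hold neither word, while that of Alas2 holds both. Farther from the start, Epb42 has a GATA word at -226 and Hba-a1 has one at -183. The counts cover all 26 genes whatever their change, and the matches describe letters only.

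The labelled tissues carried their own markers: Cd3e and Spic in spleen, S100a8, Cd79a and Cd3e in blood, Cd3e in both nodes, Umod and Kap in kidney, Fabp2 and Vil1 in jejunum, and Snap25, Mbp and Gfap in brain lay between percentiles 77.6 and 99.99 of the vehicle values in their tissue. The 7 tissues appear to have been normalized separately, so positions within a tissue are compared here and levels are not. In vehicle mice the median erythroid gene lay at percentile 74.6 in spleen and 75.6 in blood, and between 31.3 and 37.4 in the other 5 tissues. Klf1, the regulator of late erythroid genes, lay at percentile 55.7 in spleen, 48.2 in blood and 38 in kidney. Hba-a1 lay at percentile 100 in spleen and blood, which is the top of the scale. Of the 33 genes, 33 passed the filter on low values in spleen, 29 in blood, 14 in inguinal node, 15 in mesenteric node, 16 in kidney, 15 in jejunum and 16 in brain. All 33 would pass in spleen also without the DMF179.2 arrays. In vehicle spleen, however, Plek2 lay above the filter level on 2 of 8 arrays, Rhag and Icam4 on 3 and Tfr2 on 4. Arrays per group numbered between 5 and 8, and this number limits the precision. The titles number the arrays but say nothing of separate mice, so p-values measure the spread between these arrays.

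In spleen, 22 of the 33 erythroid and heme genes rose under DMF179.2 relative to vehicle and none fell (limma, Benjamini-Hochberg adjusted p under 0.05 over 10549 genes, 8 arrays against 8). Over all genes tested, 24.4% were called in this comparison, 16.9% as higher and 7.54% as lower. The median log2 difference of the 33 genes was 1.27, against 0.04 for all genes tested, and 32 of the 33 were above 0. Regulators, surface proteins and the iron receptor Tfr2 showed the larger changes, the widely used heme enzymes smaller ones. Alpha globin, Alas2 and Bpgm did not pass the test, while red cell membrane genes such as Epb42, Kel and Rhag did. The genes were not grouped by stage of maturation. In bulk samples such as these, fewer cells of a type and less RNA per cell cannot be told apart.

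All 4 transcription factors of the erythroid program on the list rose in spleen at the high DMF dose. Klf1, on the deposited log2 scale, ran from 5.48 through a median of 7.35 to 9.45 on the 8 vehicle arrays and from 9.04 through 9.75 to 10.55 on the 8 DMF179.2 arrays. For Klf1, 6 of the 8 treated arrays lay above the highest vehicle array, and the ranges overlapped through the upper vehicle arrays. The fitted difference of Klf1 was 2.28 on the log2 scale (SE 0.66, 4.84-fold, limma adjusted p = 0.012). Gata1, the master regulator of red cell and megakaryocyte genes, ran from 6.40 through 7.92 to 9.60 in vehicle and from 9.11 through 9.74 to 10.34 in DMF179.2. Its difference was 1.67 (SE 0.50, 3.18-fold, limma adjusted p = 0.0155), again with 6 of 8 treated arrays above the highest vehicle array. Tal1, which acts in a complex with GATA1, ran from 7.14 through 8.45 to 10.47 in vehicle and from 9.75 through 10.46 to 11.35 in DMF179.2, with 3 treated arrays above the vehicle range. Its difference was 1.91 (SE 0.52, 3.76-fold, limma adjusted p = 0.00899). Nfe2, a subunit of the factor NF-E2 that acts at globin genes, rose by 1.34 on the log2 scale.

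**Figure D1:**
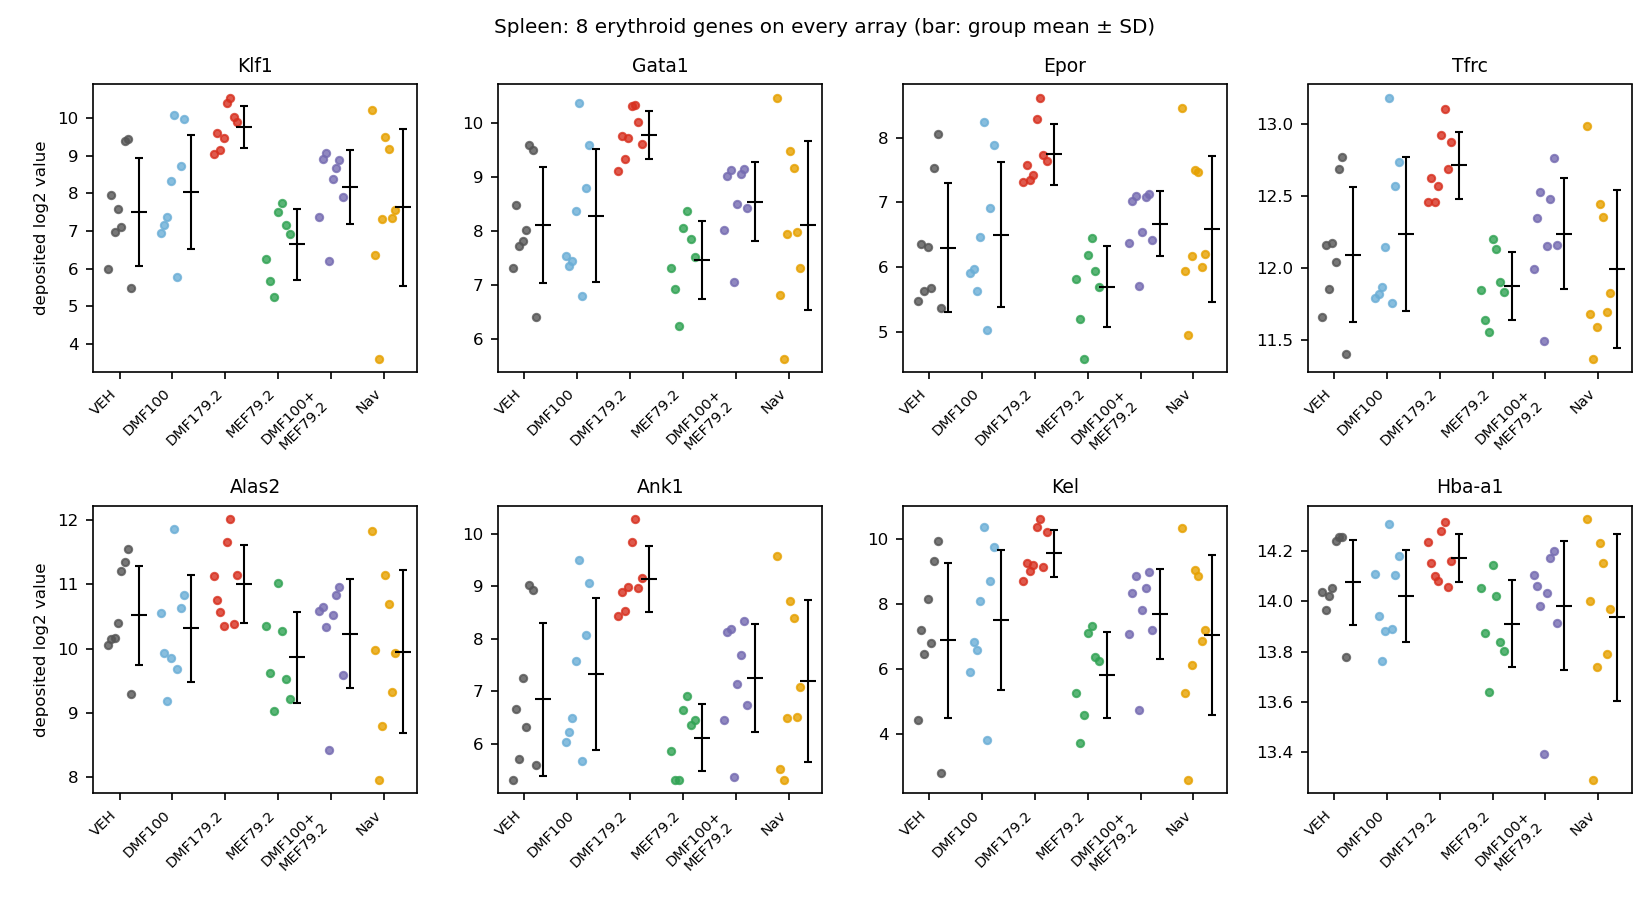
Deposited log2 values of 8 erythroid genes on every spleen array, 1 panel per gene, with groups along the horizontal axis and a bar for the group mean ± SD. The DMF179.2 arrays of Klf1 lie between 9.04 and 10.55, above most vehicle arrays, which spread from 5.48 to 9.45, whereas Hba-a1 has means of 14.17 in DMF179.2 and 14.08 in vehicle.

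The receptors for erythropoietin and for iron-loaded transferrin rose with them. Epor, through which erythropoietin signals survival, ran from 5.37 through 5.99 to 8.05 in vehicle spleen and from 7.32 through 7.60 to 8.62 in DMF179.2 spleen. The groups overlapped in Epor, with 2 of the 8 treated arrays above the vehicle range, and it rose by 1.44 on the log2 scale. Tfr2, an iron sensor that associates with the erythropoietin receptor in red cell precursors, ran from 4.44 through 5.50 to 8.11 in vehicle and from 7.23 through 8.38 to 9.33 in DMF179.2. Its difference was 2.41 (SE 0.61, 5.33-fold, limma adjusted p = 0.00563), and 6 of 8 treated arrays lay above the vehicle range. Tfrc, the transferrin receptor that dividing cells of many types use, ran from 11.40 through 12.10 to 12.78 in vehicle and from 12.46 through 12.66 to 13.11 in DMF179.2. Tfrc rose by 0.62 on the log2 scale, the least of the 3 receptors. Its other, weaker probe sets differed by 1.04 and 0.12, and Tfrc was not called when the mean of its probe sets was used. Slc25a37, the mitochondrial iron importer mitoferrin, had a difference of 0.06 on the probe set used and 0.48 on another, and did not pass the test on the first.

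Of the 7 listed enzymes of heme synthesis, 4 rose in spleen under DMF179.2 and 3 did not pass the test. Alas2 catalyses the rate-setting step in red cell precursors. Its log2 values ran from 9.30 through 10.28 to 11.54 in vehicle and from 10.35 through 10.94 to 12.01 in DMF179.2, so the groups overlapped widely. The difference of Alas2 was 0.48 (95% confidence interval -0.37 to 1.33, limma adjusted p = 0.418), an interval that also holds a difference as large as that of Alad. Alad, the enzyme of the step after it, ran from 9.29 through 9.87 to 11.43 in vehicle and from 10.72 through 11.07 to 11.79 in DMF179.2. Alad rose by 1.05 on the log2 scale, and 2 treated arrays lay above the vehicle range. Uros, which closes the porphyrin ring, rose by 0.81, Cpox, a mitochondrial oxidase of the pathway, by 0.88 and Ppox, the oxidase after it, by 0.57 on the log2 scale. Cpox was not called when the mean of its probe sets was used. Urod, which trims the side chains of the ring, had a difference of 0.57 (limma adjusted p = 0.0561), and Fech, which inserts the iron, had 0.60 (limma adjusted p = 0.125).

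Alpha globin was not called in spleen under DMF179.2. Hba-a1 ran from 13.78 through 14.04 to 14.26 in vehicle spleen and from 14.06 through 14.16 to 14.32 in DMF179.2 spleen, with overlapping groups. Its difference was 0.10 (95% confidence interval -0.12 to 0.31, limma adjusted p = 0.524). The other Hba-a1 probe sets, which were less bright, differed by 0.14 and 0.21. The probe set used is at the top of the scale, and its name marks it as one that can also bind similar sequences, so Hba-a1 and its near-identical copy Hba-a2 may not be separated. The 2 globin genes tested beside it, from a list of 9, had a median difference of -0.04 and none was called. Bpgm, which makes the regulator of oxygen release in red cells, had a difference of -0.07 and was the single member below 0.

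Genes of the red cell membrane skeleton showed some of the larger changes. Ank1, the ankyrin that ties the skeleton to the membrane, ran from 5.30 through 6.48 to 9.02 in vehicle spleen and from 8.43 through 8.97 to 10.28 in DMF179.2 spleen. The 2 groups overlapped through the upper vehicle arrays, and Ank1 differed by 2.29 (SE 0.58, 4.89-fold, limma adjusted p = 0.00574). Other, weaker Ank1 probe sets differed by 1.03 and -0.02. Epb42, protein 4.2 of the same complex, had medians of 6.92 in vehicle and 8.88 in DMF179.2. Its difference was 2.06 (SE 0.73, 4.16-fold, limma adjusted p = 0.0362). Another, weaker Epb42 probe set differed by 0.23, and the gene was not called when the mean of its probe sets was used. Sptb, the beta spectrin of red cells, rose by 1.23. Slc4a1, the band 3 anion exchanger, had a difference of 1.27 (limma adjusted p = 0.110), and Add2, which caps actin filaments in the skeleton, had 0.37 (limma adjusted p = 0.114).

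The surface and blood group proteins all rose. Kel, the metalloprotease that carries the Kell antigens, ran from 2.81 through 7.01 to 9.93 in vehicle spleen and from 8.70 through 9.22 to 10.61 in DMF179.2 spleen. Vehicle arrays of Kel spread over far more than treated ones, with an SD of 2.38 against 0.73, and its difference was 2.67 (SE 0.90, 6.38-fold, limma adjusted p = 0.0278). Rhag, the Rh-associated channel, had medians of 4.94 in vehicle and 6.88 in DMF179.2 and differed by 2.1 (SE 0.75, 4.29-fold, limma adjusted p = 0.0353). Rhd, the Rh antigen itself, had medians of 8.22 and 9.72 and differed by 1.69 (SE 0.61, 3.23-fold, limma adjusted p = 0.0398). Icam4, an adhesion molecule by which precursors bind macrophages, had medians of 5.13 and 6.80 and differed by 1.66 (SE 0.52, 3.15-fold, limma adjusted p = 0.0193). Ermap, an erythroid membrane protein of the immunoglobulin family, rose by 1.54. Among the remaining genes, Plek2, which binds membrane lipids and takes part in enucleation, rose by 1.59, Car1, a carbonic anhydrase of red cells, by 1.09 and Tspan33, a tetraspanin needed for normal red cell formation, by 1.03 on the log2 scale. Car2, the other carbonic anhydrase, had a difference of 0.92 (limma adjusted p = 0.0802), Hemgn, a nuclear protein of blood precursors, 1.505 (limma adjusted p = 0.0903) and Trim10, a ubiquitin ligase of erythroid cells, 1.52 (limma adjusted p = 0.0886). Of the 22 genes called, 21 changed at least 1.5-fold, and Ppox changed 1.48-fold.

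The groups overlapped in every one of the 33 genes, although 31 of them had all 8 DMF179.2 arrays above the vehicle median. The vehicle arrays spread more than the DMF179.2 arrays in 30 of 33 genes. Vehicle replicates 6 and 7 were the highest pair in 31 genes, with means over the 33 genes of 9.99 and 10.3, against 7.40 to 9.001 on the other 6 vehicle arrays. On the DMF179.2 arrays that mean ran from 9.66 through 9.88 to 10.7. Without single arrays in turn the count of 22 ranged from 11 to 25. It was 12 without DMF179.2 replicate 21, 11 without DMF179.2 replicate 22, 12 without vehicle replicate 1, 14 without vehicle replicate 3 and 11 without vehicle replicate 8. Klf1, Gata1, Tal1, Epor, Tfr2, Alad, Uros, Ank1, Icam4 and Plek2 stayed called in all 16 of these fits.

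A measure of RNA quality or labelling moved with the same comparison. The signal of the 3′ less that of the 5′ control probe sets of actin and Gapdh averaged 1.20 ± 0.07 (SD, n = 8) on the log2 scale in vehicle spleen and 1.39 ± 0.11 (SD, n = 8) in DMF179.2 spleen, where 6 of 8 arrays lay above the highest vehicle array. Above the highest vehicle array in this measure also lay 7 of 8 Nav arrays, 4 of 8 DMF100 arrays, 4 of 8 combination arrays and 2 of 7 MEF79.2 arrays. With this measure as a covariate, none of the 33 genes was called by limma (lowest adjusted p 0.174), and 19 of all 10549 genes were. In that fit the median difference of the 33 genes was 1.34, 32 of 33 were above 0, and 24 had an unadjusted p under 0.05, as had 14.7% of all genes. Klf1 differed by 1.97 (SE 0.79, limma adjusted p = 0.244) in it. The part of this measure in the result was not tested.

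Other gene lists, written from general knowledge, were set beside these in spleen, where 16.9% of all genes were called higher and 7.54% lower. Of 13 further heme and iron genes tested, 7 rose under DMF179.2 and none fell (median difference 0.36), among them Abcb6, a porphyrin transporter, by 1.03, Slc25a38, the mitochondrial glycine carrier, by 0.84, Glrx5, an iron-sulfur cluster protein, by 0.68 and Aco1, an iron sensor, by 0.34. Of 11 further membrane genes, 5 rose and none fell (median 0.30), among them Dmtn, which bundles actin, by 2.09, Gypc, a glycophorin, by 0.83, Cd59a, a complement inhibitor, by 0.46 and Tmod1, which caps actin, by 0.30. Of 16 erythroid regulators, 6 rose and none fell (median 0.05), with the GATA1 partner Zfpm1 by 1.20, the repressor Gfi1b by 1.54, the heme-sensing kinase Eif2ak1 by 0.55 and the progenitor factor Myb by 0.52. Of 8 genes of erythropoietin signalling, Cish, a feedback inhibitor, rose by 0.45 and no other was called (median 0.01). Of 14 genes of erythroid maturation, Fbxo30 rose by 0.67, Ulk1, an autophagy kinase, by 0.33 and E2f4, a cell cycle factor, by 0.25 (median 0.36), a share near that over all genes.

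Of 28 cell cycle genes tested, 16 rose under DMF179.2, where 16.9% of all genes did, and none fell (median difference 0.56), among them the replication helicase subunits Mcm2 by 0.76 and Mcm6 by 0.49, the polymerase clamp Pcna by 0.33 and the S-phase factor E2f1 by 0.59. The mean of these 28 genes ran from 8.29 to 9.64 on vehicle arrays and from 9.16 to 9.77 on DMF179.2 arrays, an overlapping range. Markers of B cells ran the other way, with 5 of 12 called lower, where 7.54% of all genes were, and none higher (median -0.10). Cd37 fell by 0.23, Cr2 by 0.24, Fcrla by 0.31 and Spib by 0.26 on the log2 scale, and the mean of the 12 genes ran from 11.53 to 11.72 in vehicle and from 11.40 to 11.60 in DMF179.2. Among 9 T cell markers Thy1 rose by 0.37 and none fell, with means between 9.74 and 10.11 in vehicle and between 9.79 and 10.22 in DMF179.2. Among 13 red pulp macrophage markers C1qa fell by 0.32 and Hmox1 by 0.34, with means between 9.76 and 10.53 in vehicle and between 9.88 and 10.46 in DMF179.2. Of 11 neutrophil markers Cxcr2 fell by 0.40 (means 7.72 to 9.96 in vehicle, 7.76 to 8.88 in DMF179.2), and none of 9 megakaryocyte, 1 mast cell or basophil and 3 adipocyte markers was called. The megakaryocyte means ran from 8.44 to 9.71 in vehicle and from 8.87 to 9.28 in DMF179.2. The part of these cell types in the result was not tested.

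The erythroid genes also moved together from array to array within groups. After each group's mean was taken off, each gene was correlated with the mean of the other members over 47 spleen arrays. The correlation ran from 0.69 (Bpgm) to 0.99 (Rhd) in 32 genes, and was -0.19 for the Slc25a37 probe set used. Another Slc25a37 probe set, brighter in vehicle spleen (10.88 against 10.24), differed by 0.48 under DMF179.2 and was not included here. All genes on an array share its RNA quality and cell makeup, which can differ between arrays. The correlations are given as a description. The median correlation with the member mean was 0.88 for the cell cycle genes, 0.85 for erythroid maturation, 0.84 for the further heme and iron genes, 0.80 for the further membrane genes and 0.60 for both neutrophil and megakaryocyte markers. It was -0.33 for B cell and -0.65 for T cell markers, and -0.10 over all genes. The 5 genes outside the list most like the member mean were Ctse, a protease of red cells (0.99), Cldn13, a claudin (0.99), Prdx2, the peroxiredoxin of red cells (0.98), Tspan8, a tetraspanin (0.98) and Aqp1, the water channel of red cells (0.98). Among these, Cldn13 rose by 1.98 and Aqp1 by 1.09 under DMF179.2, while Ctse, Prdx2 and Tspan8 had adjusted p between 0.0508 and 0.0584 by limma. Nqo1, the usual marker of the NRF2 response to fumarates, had a correlation of 0.93 with the member mean, which ranked it 85 of 10549 genes, and rose by 1.61 (SE 0.31, limma adjusted p = 0.000985).

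**Figure D2:**
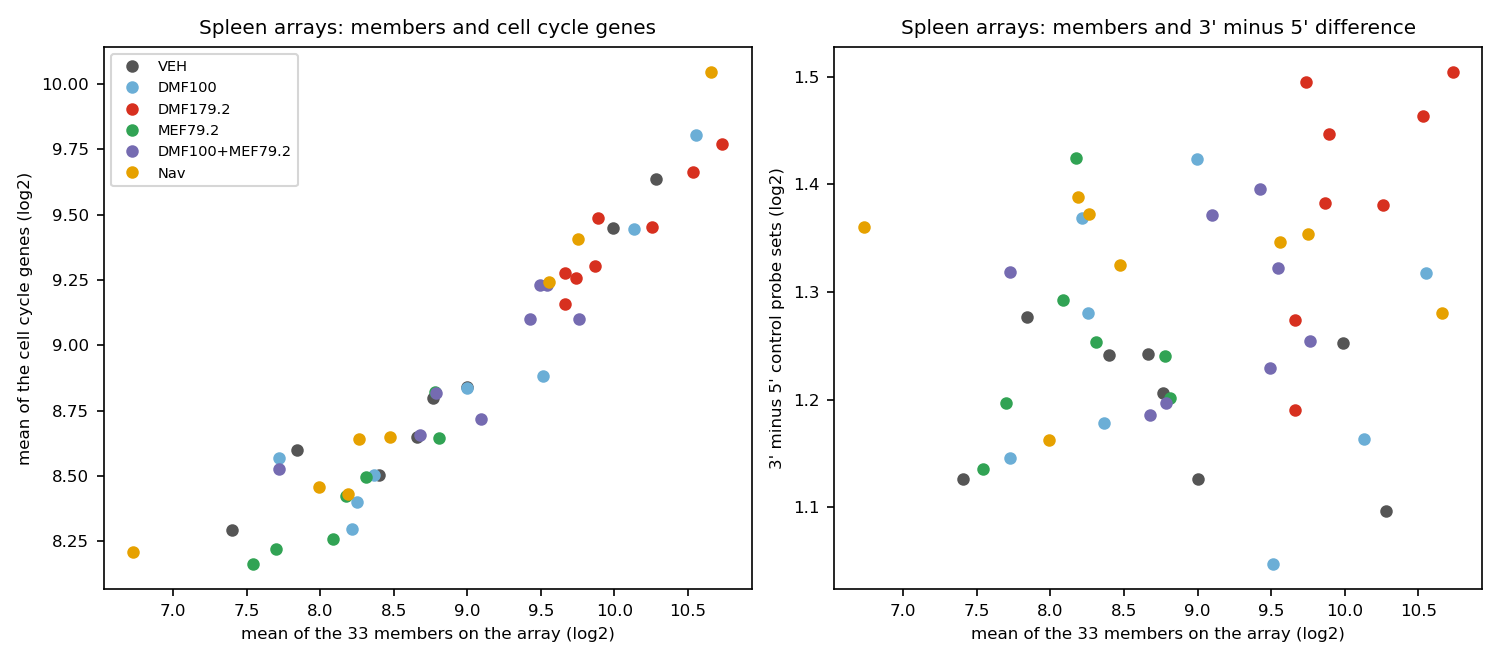
Each point is a spleen array, coloured by group. The left panel plots the mean of the 33 genes against the mean of the cell cycle genes, which rise together across groups, and the right panel plots it against the 3′ minus 5′ control difference, which averaged 1.39 in DMF179.2 and 1.20 in vehicle.

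None of the 33 genes was called against vehicle in another spleen group, and these comparisons share the 8 vehicle arrays. Under DMF100, 0 of 33 genes were called (0.834% of all genes were), 29 were above 0 and the median difference was 0.18. Under the combination, 0 of 33 were called (0.0284% of all genes), 27 were above 0 and the median was 0.26. Under MEF79.2, 0 of 33 were called (0% of all genes), all 33 were below 0 and the median was -0.61. In Nav, 0 of 33 were called (13.4% of all genes), 14 were above 0 and the median was -0.07. By limma, 0 members had an unadjusted p under 0.05 under DMF100, MEF79.2 and the combination, and 2 of 33 did in Nav. Of all 10549 genes, 1342 did under DMF100, 562 under MEF79.2, 807 under the combination and 3281 in Nav. As an example, Klf1 ran from 5.78 through 7.84 to 10.09 under DMF100, from 5.25 through 6.93 to 7.74 under MEF79.2, from 6.21 through 8.53 to 9.07 under the combination and from 3.60 through 7.45 to 10.20 in Nav. DMF100 and Nav arrays of Klf1 thus spread over the vehicle range and beyond it, and the MEF79.2 arrays ran from below its lowest array to short of its upper arrays. The standard error of a single gene here had a median of 0.45 on the log2 scale.

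Directly compared, DMF179.2 lay above DMF100 in all 33 genes, with a median difference of 1.14, but 0 were called (2.56% of all genes were). Tfr2 came closest, with a difference of 2.05 (SE 0.61, limma adjusted p = 0.052). An unadjusted p under 0.05 was reached by 26 of the 33 and by 2608 of all 10549 genes. DMF179.2 also lay above the combination, in all 33 genes, with a median of 0.92. In that comparison 2 of 33 genes were called, against 5.64% of all genes, namely Ank1 by 1.88 (SE 0.58, limma adjusted p = 0.0466) and Plek2 by 1.51 (SE 0.45, limma adjusted p = 0.0406). These 2 calls were lost without filtering of low values and when several single arrays were left out. The combination differed from DMF100 by a median of 0.04, with 0 of 33 called (0% of all genes, and 739 at an unadjusted p under 0.05). MEF79.2 lay below DMF100 in all 33 genes, with a median of -0.79 and 0 called (0.0948% of all genes).

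In blood, none of the 29 genes tested was called in any group. Of all genes, 0.26% were called against vehicle in DMF100, 1.34% in DMF179.2, 0% in MEF79.2, 0% in the combination and 0.0193% in Nav. Alas2, among the more abundant transcripts of blood, ran from 13.57 through 13.74 to 13.86 in vehicle and from 13.64 through 13.75 to 13.85 in DMF179.2. The groups of Alas2 overlapped almost entirely, with a difference of 0.01 (95% confidence interval -0.08 to 0.11, limma adjusted p = 0.917). Hba-a1 differed by 0.04 (95% confidence interval -0.05 to 0.14) and Fech by 0.01 (95% confidence interval -0.09 to 0.11). Alas2, Hba-a1 and Fech lay at percentiles 99.9 to 100 of vehicle blood. Differences may be compressed at the top of the scale, so their narrow intervals may understate a change. Klf1 ran from 3.53 through 4.08 to 5.04 in vehicle and from 4.59 through 4.79 to 5.48 in DMF179.2, with all 8 treated arrays above the vehicle median and 2 above its range. Its difference was 0.64 (95% confidence interval 0.04 to 1.24, limma adjusted p = 0.276), and it was the single member with an unadjusted p under 0.05. Of all 10378 genes, 1651 had such a p. Gata1 differed by -0.04, Tfrc by 0.25 and Alad by 0.28. Epor lay under the filter level on all 7 vehicle arrays, so no difference is given for it. Over the 29 genes under DMF179.2, 23 were above 0 with a median of 0.12, and under MEF79.2, 24 were below 0 with a median of -0.09. The further heme and iron genes gave 0 of 13 called in blood under DMF179.2, the other globins 0 of 3 and the cell cycle genes 0 of 25. Tfr2, Rhag, Icam4 and Plek2 were not tested in blood because they did not pass the filter there.

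The test of whether the DMF179.2 response differed between spleen and blood called 0 of 29 genes and 206 of 9557 genes in all (2.16%). The members' median difference of responses was 0.83, against 0.03 for all genes. Ank1 came closest, with a spleen response of 2.29, a blood response of 0.05 and a difference of 2.24 (SE 0.67, limma adjusted p = 0.0531). Gata1 differed by 1.71 between the tissues (SE 0.57, limma adjusted p = 0.083). In this fit, that a gene was called in spleen and not in blood is therefore not shown to be a difference between them. Other settings changed this count: 3 members were called with the replicate number as a block (lowest adjusted p by limma 0.0246), 2 without the array of lowest correlation in each tissue, and 1 with the 70th percentile filter, centring of arrays, array weights or probe sets averaged by gene.

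**Figure D3:**
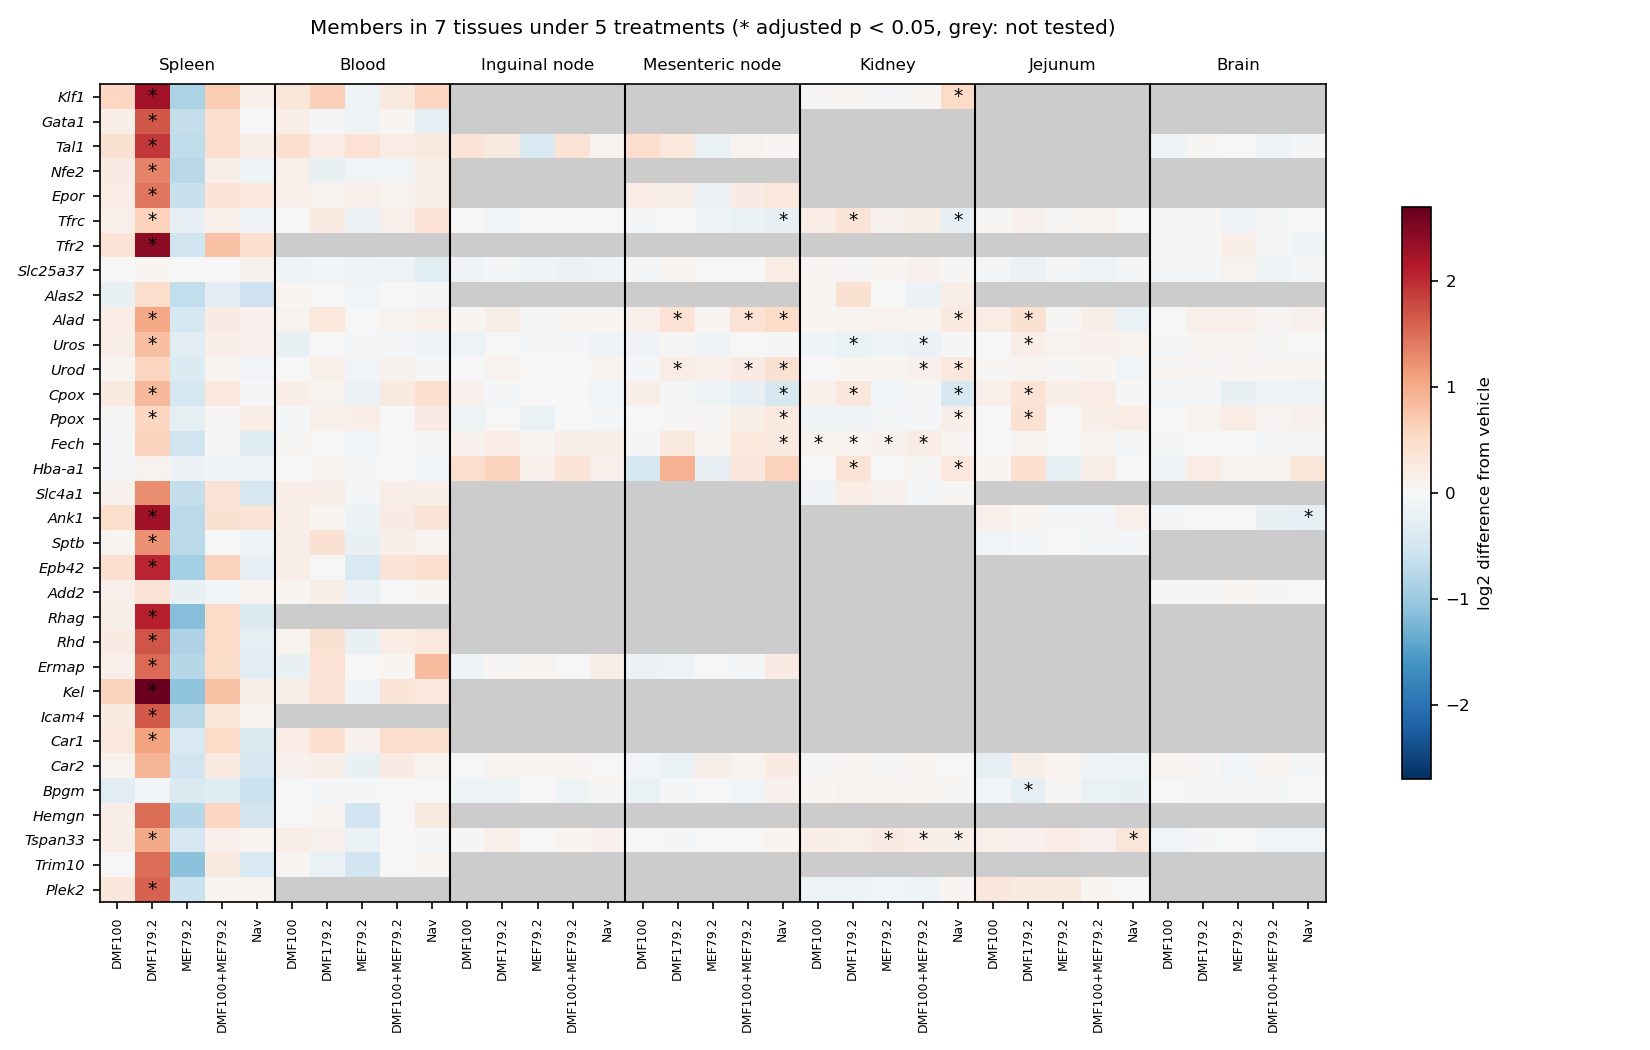
Log2 difference from vehicle of each gene (vertical) under each treatment in each tissue (horizontal), with red for higher, blue for lower, grey for not tested and a star for adjusted p under 0.05. The stars of spleen sit in the DMF179.2 column, and those of kidney, mesenteric node and jejunum are mostly on heme enzymes and Tfrc.

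Outside spleen and blood, the genes called were mostly enzymes of heme synthesis and Tfrc, with changes far smaller than those of spleen. Only 14 to 16 members were tested in each of these tissues. Alad, Uros, Urod, Cpox, Ppox, Fech and Tfrc were tested in each, whereas Gata1, Kel, Rhag and Epb42 passed the filter in none of them. In kidney, Tfrc rose under DMF179.2, and its log2 values ran from 11.60 through 11.85 to 11.98 on 7 vehicle arrays and from 11.99 through 12.12 to 12.29 on 8 treated arrays. The groups of Tfrc did not overlap, and the difference was 0.35 (SE 0.07, 1.27-fold, limma adjusted p = 0.000306). Over all kidney genes, 16.7% were called under DMF179.2. Of 16 members tested, Cpox also rose by 0.32, Hba-a1 by 0.36 and Fech by 0.10, and Uros fell by 0.19. Uros was not called with the mean of its probe sets (-0.06, limma adjusted p = 0.268). Cpox was not called with array weights (0.22), with the 2 groups alone (0.32) or without DMF179.2 replicate 23 (0.24). The Hba-a1 call was lost without any one of DMF179.2 replicates 17, 22 and 24 or vehicle replicates 2, 3, 5 and 6 (0.31 to 0.35). That of Fech was lost without any one of DMF179.2 replicates 17, 22, 23 and 24 or vehicle replicates 2, 3, 5 and 8 (0.08 to 0.10). Fech rose under DMF100 (8.09% of all genes called) by 0.10, under MEF79.2 (14.2%) by 0.12 and under the combination (30.3%) by 0.20. The members called were 6.25%, 12.5% and 25% of the 16 tested in these groups, each below the share over all genes. Under DMF100 the Fech call was lost without any single DMF100 array or without vehicle replicate 2, 3, 5 or 8 (0.09 to 0.11). Its probe sets disagree, since with their mean the difference was -0.04 under MEF79.2 and lay below 0 under the combination too. Under the combination Urod also rose by 0.11 and Tspan33 by 0.18 and Uros fell by 0.16, and under MEF79.2 Tspan33 rose by 0.22. Tspan33 was not called with the hybridisation covariate under either (0.14 and 0.19), nor under the combination without its replicate 39 (0.14) or vehicle replicate 3 (0.16). Under the combination, Uros was not called with the mean of its probe sets (-0.09), nor Urod with the 2 groups alone (0.11, limma adjusted p = 0.0543).

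The non-erythroid counterpart of Alas2 changed more in kidney than any listed gene did under the 4 fumarate treatments. Alas1, which catalyses the same step in all other cells, rose in DMF100 by 0.90 (SE 0.13, limma adjusted p = 3.35e-06), in DMF179.2 by 1.05 (SE 0.13, limma adjusted p = 3.52e-08), in MEF79.2 by 1.35 (SE 0.13, limma adjusted p = 4.24e-10) and in the combination by 1.35 (SE 0.13, limma adjusted p = 4.96e-11). Blvrb, a biliverdin reductase, rose in kidney by 0.60, 0.87, 0.70 and 0.96 in the same order, and by 0.41 in Nav. Of the 13 further heme and iron genes, 6 were called higher in kidney under each treatment and in Nav. Of all genes, 4.51% were called higher in DMF100, 10.6% in DMF179.2, 8.75% in MEF79.2, 17.7% in the combination and 30% in Nav. Among the 13, the numbers called lower were 0 under DMF100 and MEF79.2, 1 under DMF179.2, 1 under the combination and 3 in Nav. In the direct comparison of DMF179.2 with the combination in kidney (11.4% of all genes called), Alas2 was higher by 0.57 (SE 0.17, limma adjusted p = 0.0279), Cpox by 0.36 and Tfrc by 0.19, and Fech was lower (-0.10). Alas2 was not called without DMF179.2 replicate 24 (0.41) or without combination replicate 34 or 37 (0.51 and 0.50). Fech was not called without DMF179.2 replicate 18 or 21 or combination replicate 37 (-0.10 to -0.09). Tfrc was not called without any one of DMF179.2 replicates 17, 18, 20, 21, 22 and 24 or combination replicates 32, 34, 36, 37, 38 and 39 (0.17 to 0.20).

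The Nav group of kidney had 8 of 16 members called (50%), a share near that over all genes. Of all genes 49.8% were called, 30% as higher and 19.8% as lower. Alad ran from 10.57 through 10.72 to 10.79 in vehicle and from 10.90 through 10.97 to 11.02 in Nav, and Urod from 10.34 through 10.39 to 10.53 and from 10.63 through 10.70 to 10.72. Both enzymes lay above the vehicle range on all 8 Nav arrays, with differences of 0.27 (SE 0.05, limma adjusted p = 8.84e-06) and 0.28 (SE 0.03, limma adjusted p = 2.68e-08). Cpox, a later enzyme of the same pathway, ran from 9.60 through 9.74 to 9.83 in vehicle and from 9.17 through 9.29 to 9.44 in Nav. All 8 Nav arrays of Cpox lay below the vehicle range, and it fell by 0.44 (SE 0.09, limma adjusted p = 0.000197). Tfrc fell by 0.22, and Ppox rose by 0.15, Tspan33 by 0.15 and Hba-a1 by 0.29. The Hba-a1 call was lost without any one of Nav replicates 40, 41, 44 and 47 or vehicle replicates 2, 3, 5, 6 and 8 (0.24 to 0.29), and that of Tspan33 without Nav replicates 40, 42, 44 or 47 or vehicle replicates 2, 3, 4 or 6 (0.10 to 0.15). Klf1 rose by 0.53 (SE 0.10, limma adjusted p = 6.68e-05), from a vehicle mean of 4.96 that lies under the filter level of 5.10.

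In mesenteric node of the Nav group, as in kidney, Alad, Urod and Ppox were called higher and Cpox and Tfrc lower. In all, 6 of 15 members were called (40%), a share below that over all genes, of which 50.6% were called (29.8% higher, 20.8% lower). Urod ran from 9.33 through 9.44 to 9.54 in vehicle and from 9.68 through 9.86 to 9.95 in Nav, without overlap, and rose by 0.41 (SE 0.05, limma adjusted p = 1.25e-08). Cpox ran from 7.58 through 7.79 to 8.06 in vehicle and from 7.22 through 7.40 to 7.53 in Nav, also without overlap, and fell by 0.43 (SE 0.08, limma adjusted p = 3.04e-05). Alad rose by 0.52, Ppox by 0.26 and Fech by 0.24, and Tfrc fell by 0.23. Nav replicate 40 stood apart in red cell transcripts, with 12.64 in Hba-a1 against at most 10.37 on the other Nav arrays, 5.72 in Alas2 against 2.14, and 10.08 in Fech. Without it Fech differed by 0.15 and was not called (limma adjusted p = 0.170). The Fech call was also lost without Nav replicate 42 or vehicle replicate 1, 2, 3, 5, 6 or 8 (0.20 to 0.24). Flvcr1, a heme exporter, fell by 0.72 in mesenteric node and by 0.52 in kidney of the Nav group. The hybridisation controls were brighter in the Nav arrays of both tissues, by 0.24 in kidney and 0.22 in mesenteric node on the log2 scale. With them as a covariate, Alad, Urod, Cpox and Ppox stayed called in both tissues, Tfrc and Klf1 stayed called in kidney, and Hba-a1 and Tspan33 in kidney and Tfrc and Fech in mesenteric node did not.

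**Figure D4:**
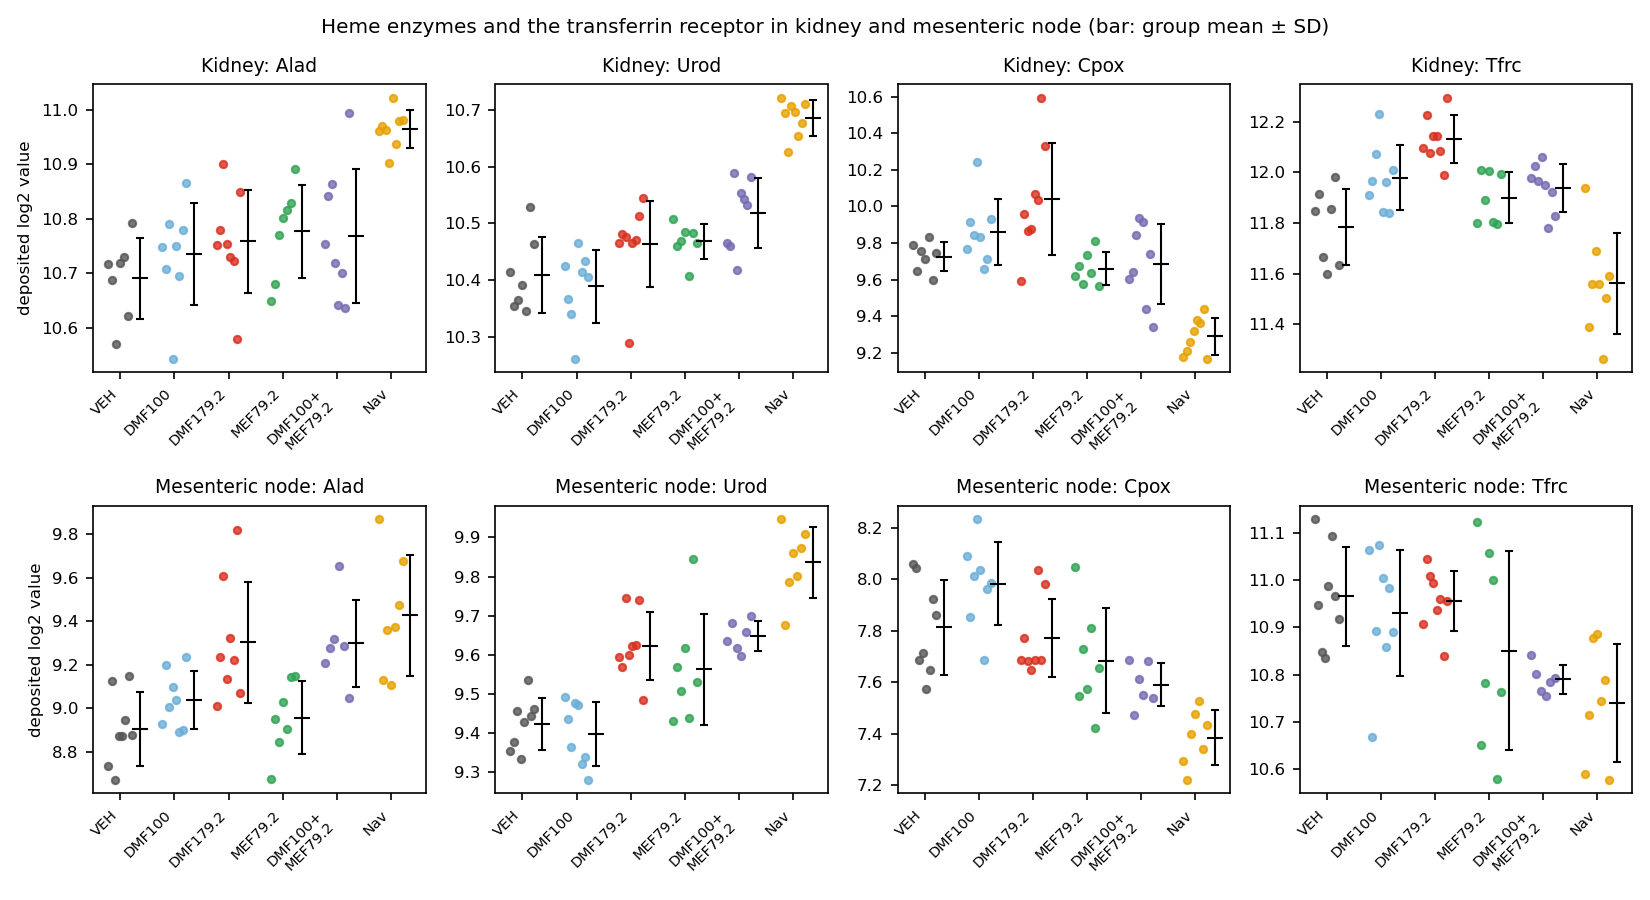
Deposited log2 values of Alad, Urod, Cpox and Tfrc on every array of kidney (top) and mesenteric node (bottom), by group, with a bar for the group mean ± SD. In kidney the Nav arrays of Alad (10.90 to 11.02) lie above and those of Cpox (9.17 to 9.44) below all vehicle arrays.

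The fumarate groups of mesenteric node had 2 of 15 members called (13.3%) in each of DMF179.2 and the combination. Under the combination this share is near that over all genes. Under DMF179.2 (7.88% of all genes called), Alad rose by 0.40 (SE 0.10, limma adjusted p = 0.0146) and Urod by 0.20 (SE 0.05, limma adjusted p = 0.00852), with 7 of 8 treated arrays of Urod above the vehicle range. Without DMF179.2 replicate 23, the mesenteric array of lowest correlation with the others, Alad differed by 0.32 and was not called (limma adjusted p = 0.0547). Under the combination (12.7% of all genes called), Alad rose by 0.39 and Urod by 0.22, and all 6 arrays of Urod lay above the vehicle range. The Alad call was lost with the mean of its probe sets, by which it differed by 0.21 (limma adjusted p = 0.0748), and without replicate 35 of the combination (0.32, limma adjusted p = 0.0691). None of 15 members was called under DMF100 (1.85% of all genes) or MEF79.2 (4.75%). Blvrb rose there by 0.52 and 0.48 in these groups. Directly compared, MEF79.2 lay below DMF100 in Tal1, which fell by 0.63 (SE 0.16, limma adjusted p = 0.00831, 13.5% of all genes called), and in Cpox, which fell by 0.30, and above it in Urod, by 0.17. Without MEF79.2 replicate 30 that Urod difference was 0.12 and was not called (limma adjusted p = 0.0915).

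In jejunum under DMF179.2, 4 of the 6 heme enzymes tested rose. Of 15 members tested, 5 were called (33.3%), a share near that over all genes, of which 27.4% were called. Alad ran from 9.91 through 10.20 to 10.55 in vehicle and from 10.41 through 10.70 to 10.84 in DMF179.2, and rose by 0.41 (SE 0.09, limma adjusted p = 0.000687), with 4 of 7 treated arrays above the vehicle range. Ppox rose by 0.40 (SE 0.09, limma adjusted p = 0.00144), Cpox by 0.36 and Uros by 0.19, and Bpgm fell by 0.27. Uros was not called without DMF179.2 replicate 21 or vehicle replicate 5 (0.16 in both fits) or with either quality covariate (0.15 and 0.14), nor was Bpgm with the hybridisation controls as covariate (-0.19). Blvrb rose by 0.95. The probe sets of the alpha globin copies, which may not be separated, differed in sign: that of Hba-a2 fell by 0.34, and that of Hba-a1 had a difference of 0.45 (SE 0.23, limma adjusted p = 0.137). In Nav (7.87% of all genes called) Tspan33 rose by 0.34, a call lost with the hybridisation covariate (0.29, limma adjusted p = 0.191), and no member was called in jejunum under DMF100 (0.996% of all genes), MEF79.2 (0.111%) or the combination (3.84%). In brain, Ank1 fell by 0.22 in Nav (SE 0.05, limma adjusted p = 0.0147, 3.83% of all genes called), and its arrays overlapped those of vehicle. No other brain comparison with vehicle called a member, and the shares of all genes there were 0.4% for DMF100, 1.09% for DMF179.2, 0.362% for MEF79.2 and 0.297% for the combination. None of 14 members was called in inguinal node, where the shares of all genes were 1.69% for DMF100, 0.379% for DMF179.2, 0.00947% for MEF79.2, 0.0474% for the combination and 0.0189% for Nav. At an unadjusted limma p under 0.05, between 0 and 4 of 16 members passed in those brain comparisons. Between 789 and 1926 of all 10763 genes did so there. In the inguinal node comparisons 2 or 3 of 14 members passed, and between 1089 and 1514 of all 10559 genes.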

How the data were processed

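The authors deposited 1 table of log2 expression values for 45141 probe sets on 308 arrays. The submitters' processing notes name RMA, GCRMA, R 2.11.1 and limma 3.4.5, with no step assigned to any of them. Background handling and the scale's offset are not given in the sources used here. Per the labels, RNA was copied from an oligo-dT primer, so probes near the 3′ end are favoured. All arrays of a tissue share a lowest value that differs between tissues, so each tissue was treated as normalized apart. The titles give the groups, because the source label does not tell DMF100 from the combination.

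Of the probe sets, 28898 have 1 gene symbol, 551 have several and 15692 are unnamed, and the last 2 kinds were left out. Tests covered genes above the median of their tissue (its 50th percentile) on at least 5 arrays. A model with 6 group means per tissue was fitted with limma 3.58.1 (R 4.3.3, data.table package, release 1.17.8). A call is an adjusted p under 0.05 (Benjamini-Hochberg) across the genes tested in that tissue. On data simulated from the spleen arrays (10549 genes), for DMF179.2 against vehicle, the calling step recovered 84% of 50 genes changed by 0.5 on the log2 scale and 96% of 50 changed by 1. It also called 12 unchanged genes. The changed genes were picked from all genes and drawn independently, whereas the members had a median standard error of 0.45 and moved together. The recovered shares therefore do not apply to the members.

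The members and lists were chosen with earlier results of these data known. Named were all members, at most 10 per comparison in full by size, up to 4 called genes of each list by smallest adjusted p, the 5 genes most correlated with the member mean in spleen, and Nqo1. Alternatives were no filter, a 70th percentile filter, renewed quantile normalization, centring of arrays, a trended variance, weights for arrays, probe sets averaged by gene, each probe set alone, the compared groups alone, 2 quality covariates, a replicate block and leaving out each array of spleen and blood. Leaving out the array of lowest correlation in each tissue, and each array of mesenteric node, kidney, jejunum and brain for the genes called there, was chosen after seeing the data.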

Additional observations from a re-analysis of the deposited data

Results flagged for a closer look

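For each group of each tissue, the mean of the tested members was examined, and in spleen and blood also Klf1, Kel, Alas2 and Hba-a1, which gave 90 sets of values over 5 to 8 arrays. In 4 sets 1 array stood apart from the rest of its group by Dixon's criterion, and chance marks about 1 in 20 sets. The mean of the tested members on jejunum DMF100 replicate 9 was 9.11, and its nearest neighbour in the group had 8.92. On brain MEF79.2 replicate 26 the mean of the tested members was 9.47, and the nearest array had 9.55. In spleen, replicate 35 of the combination group was low in Kel, at 4.74 against 7.08 on the nearest array. The same array was low in Hba-a1, at 13.4 against 13.9 on the nearest array.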

How the results depend on the processing

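All values here are counts of members called unless stated. In spleen under DMF179.2, 22 became 0 with the 3′ minus 5′ covariate, which left 19 of all genes called against 2573, and lay between 15 and 29 under the other alternatives and between 11 and 25 without single arrays. Spleen Nav went from 0 to 2 with array weights and to 1 without the array of lowest correlation, and between 0 and 1 without single arrays (1 without Nav replicate 40). The spleen comparison of DMF179.2 with DMF100 went from 0 to 29 with array weights, 6 without the array of lowest correlation and 1 with the 70th percentile filter or the hybridisation covariate. Without single arrays it ranged from 0 to 17, with 17 without DMF100 replicate 13, 10 without replicate 16 and 3 without replicate 12, and with 6 without DMF179.2 replicate 17 and 1 without replicate 19. DMF179.2 against the combination went from 2 to 18 with the 2 groups alone, 17 with array weights and 5 without the array of lowest correlation. It went to 1 with the 70th percentile filter, renewed quantile normalization or trended variance, and to 0 with no filter or the 3′ minus 5′ covariate, and ranged from 0 to 5 without single arrays (5 without DMF179.2 replicate 17, and 0 without DMF179.2 replicates 20, 21, 22 or 23 or combination replicates 32, 35, 37, 38 or 39). No blood comparison with vehicle had a called member under any alternative run.

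In the other 5 tissues together, DMF100 went from 1 to 3 with array weights, to 2 with no filter, centring, the mean of probe sets, each probe set alone or the hybridisation covariate, and to 0 with renewed quantile normalization. DMF179.2 went from 12 to 19, MEF79.2 from 2 to 4 and the combination from 6 to 11 with array weights, and MEF79.2 went to 1 with centring or the hybridisation covariate. Nav kept within 1.5 times its count of 16. The Fech difference turned negative with the mean of its probe sets, to -0.044 for kidney MEF79.2, -0.0016 for the kidney combination and -0.0545 for mesenteric node Nav. Besides those named with their results, the calls lost were of Fech in kidney (up to 6 of 12 alternatives), Hba-a1 in kidney (up to 5), Tspan33 in kidney Nav (5), and Fech (4) and Tfrc (1) in mesenteric node Nav. The cause of these shifts was not tested.

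The difference between the spleen and blood responses to DMF179.2 went from 0 members to 3 with the replicate block, to 2 without the array of lowest correlation and to 1 with the 70th percentile filter, centring, array weights or the mean of probe sets. Arrays of spleen and blood with the same number correlated above 0.1 in 15 of 38 pairs (median 0.07, range -0.09 to 0.43). Over all tissue pairs the median ran from 0.03 (blood and jejunum) to 0.26 (spleen and mesenteric node). For inguinal node and brain, 35 of 43 pairs lay above 0.1. The titles do not say that equal numbers mark the same mouse, and the main fit of spleen and blood did not pair them. Values near a tissue's lowest level are compressed, so changes of weakly expressed members may be understated.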

Other observations

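In blood, 2 of 6 mast cell and basophil markers tested were called higher under DMF179.2 and none lower, where 1.34% of all genes were called. Fcer1a, a chain of the high-affinity IgE receptor, rose by 1.33 on the log2 scale (SE 0.28, limma adjusted p = 0.0156) and Ms4a2, another chain of it, by 1.03 (SE 0.25, limma adjusted p = 0.0283). In the same comparison Mllt3, a regulator of blood stem cells and of erythroid fate, fell by 0.56 (SE 0.15, limma adjusted p = 0.0434). Nqo1 rose in blood by 0.84 (SE 0.20, limma adjusted p = 0.027), where none of the 29 members tested was called. On blood DMF100 replicate 9 and DMF179.2 replicate 18 the hybridisation controls averaged 10.43 and 10.16.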
